A study of Mus musculus with 6 samples.

Results

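Intergenic long noncoding transcripts of the NONCODE database were followed in the lungs of mice given fine particulate matter (PM2.5) and in those of mice given saline. A transcript was a member if the deposited table called it lncRNA, placed it on 1 of the 19 autosomes, and gave it a span that met no Ensembl span on either strand. Its 5′ end also had to lie more than 2000 bases from the 5′ end of every Ensembl transcript on the other strand. No expression value entered this rule. Of the members, 0 were at 0 in all libraries, so the table may list only transcripts detected in them. Shares given below are of listed transcripts. The rule kept 32367 of the 149728 transcripts in the table and 50.6% of the 63944 autosomal NONCODE lncRNAs. The other autosomal NONCODE lncRNAs were 20338 that overlapped an Ensembl span on their own strand (sense-overlapping), 8357 antisense and 2882 divergent transcripts.

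The lungs came from BALB/c mice, an inbred strain, aged 9 weeks according to the labels. Anesthetized animals received 50 µl through the trachea weekly for 8 weeks, either saline alone or saline with PM2.5, dosed at 5 mg/kg. Total RNA of frozen whole lung was extracted with Trizol and sequenced from NEBNext Ultra libraries, 3 per group, numbered 2, 3 and 4 in both groups. Whether each library is a different mouse is not said in the labels, so p-values measure the spread between these libraries, which may be technical. The kit does not mark the strand, so a member and any transcript antisense to it share reads.

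Long noncoding RNAs are transcribed and often spliced like messenger RNAs but carry no long reading frame. Intergenic ones can act on chromatin or on neighbouring genes, can host small RNAs in their introns or exons, and can also be unannotated ends of a neighbouring messenger RNA. NONCODE collects such transcripts from many sources, and most of its entries have no assigned function.

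Promoter windows are shown for 5 RefSeq lncRNA genes whose members are described below: Lncpint, 9030622O22Rik and Gm33583, in which several members shared a direction, and 2410006H16Rik and Gm13816, where a member starts at the RefSeq start. Except for Gm33583, each window runs from 250 bases before to 50 bases after the RefSeq gene start (assembly GRCm38.p6). All are printed 5′ to 3′ on the gene's strand. The Gm33583 window lies wholly inside the gene span, which begins at chr14:98169904, so the bases before that start were not read. They are chr6:31218425-31218724 (minus) for Lncpint, chr2:148040464-148040763 (minus) for the most upstream of 26 windows of 9030622O22Rik, and chr14:98169918-98170217 (plus) for Gm33583. The other two are chr11:62602627-62602926 (plus) for 2410006H16Rik and chr2:92741980-92742279 (plus) for Gm13816. Capitals mark GCGTG (the core bound by the aryl hydrocarbon receptor, a sensor of combustion compounds) or GGGCGG (the GC box), read on either strand.
Lncpint: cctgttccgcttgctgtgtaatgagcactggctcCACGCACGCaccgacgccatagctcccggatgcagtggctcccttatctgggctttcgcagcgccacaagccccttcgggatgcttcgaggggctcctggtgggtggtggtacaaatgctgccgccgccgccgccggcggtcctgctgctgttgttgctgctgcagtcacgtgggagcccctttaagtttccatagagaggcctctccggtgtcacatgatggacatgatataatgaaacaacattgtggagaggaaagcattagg
9030622O22Rik: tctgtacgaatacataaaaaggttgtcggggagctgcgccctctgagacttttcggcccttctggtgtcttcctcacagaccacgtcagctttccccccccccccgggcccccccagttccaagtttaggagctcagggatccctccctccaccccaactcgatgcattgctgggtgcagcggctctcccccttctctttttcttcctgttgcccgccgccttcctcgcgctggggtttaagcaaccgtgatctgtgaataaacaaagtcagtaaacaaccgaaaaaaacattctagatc
Gm33583: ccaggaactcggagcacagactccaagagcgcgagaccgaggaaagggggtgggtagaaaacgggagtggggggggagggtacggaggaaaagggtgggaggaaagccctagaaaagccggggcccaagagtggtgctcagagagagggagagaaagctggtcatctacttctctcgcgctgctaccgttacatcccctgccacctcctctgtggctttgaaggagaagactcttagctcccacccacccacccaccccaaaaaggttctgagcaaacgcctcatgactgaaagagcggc
2410006H16Rik: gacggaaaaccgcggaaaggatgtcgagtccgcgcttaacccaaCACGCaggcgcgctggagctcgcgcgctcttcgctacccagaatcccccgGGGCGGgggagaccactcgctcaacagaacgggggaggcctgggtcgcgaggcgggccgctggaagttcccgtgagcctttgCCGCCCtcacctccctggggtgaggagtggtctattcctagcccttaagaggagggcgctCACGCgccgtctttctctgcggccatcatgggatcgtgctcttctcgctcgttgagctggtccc
Gm13816: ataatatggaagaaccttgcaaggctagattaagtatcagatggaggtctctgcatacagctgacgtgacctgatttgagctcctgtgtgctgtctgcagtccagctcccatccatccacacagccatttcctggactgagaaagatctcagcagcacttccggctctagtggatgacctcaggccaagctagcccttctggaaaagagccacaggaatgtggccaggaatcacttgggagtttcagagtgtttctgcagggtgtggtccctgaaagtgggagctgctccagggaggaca

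The Lncpint window held 2 GCGTG cores that share a base, 18 CpG and 58.7% GC. The 2410006H16Rik window held 2 GCGTG cores and 2 GC boxes, with 31 CpG. None of the 5 motifs searched was in the windows of 9030622O22Rik, Gm33583 and Gm13816. RefSeq windows whose gene started within 50 bases of a member's 5′ end on the same strand were found for 1049 members of 737 genes, of which 51 members, with 45 windows, had a mean of at least 0.5 FPKM. Both strands were searched, and matches that share bases were all counted. TATAAA was in 17.8% of those 45 windows against 13.6% of all 32851 RefSeq windows, GCGTG in 24.4% against 32.4%, and GGGCGG in 31.1% against 35.7%. TGACNNNGC, the core of the antioxidant response element, was in 11.1% against 12.4%, and TGANTCA, the AP-1 type site, in 6.67% against 7.81%. Among RefSeq lncRNA genes alone the shares were 21.2% for GCGTG and 16.3% for GGGCGG. A match describes the letters only.

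Some members span microRNA hairpins. Of 1005 RefSeq hairpin genes, 64 lay inside 62 members at 37 loci (a locus is a group of same-strand members with overlapping spans). Only 6 of these members had a mean of at least 0.5 FPKM. The mature sequences, both arms, of the 7 hairpins inside them are shown with the seed, bases 2 to 8, in capitals. Mature microRNAs were not measured in these libraries.
mmu-let-7i-5p: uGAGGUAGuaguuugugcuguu
mmu-let-7i-3p: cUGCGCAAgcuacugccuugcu
mmu-miR-142a-5p: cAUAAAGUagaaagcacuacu
mmu-miR-142a-3p: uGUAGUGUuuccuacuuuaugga
mmu-miR-146a-5p: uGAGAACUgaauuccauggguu
mmu-miR-146a-3p: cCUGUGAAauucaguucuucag
mmu-miR-181b-5p: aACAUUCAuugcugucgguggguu
mmu-miR-181b-1-3p: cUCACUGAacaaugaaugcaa
mmu-miR-344-3p: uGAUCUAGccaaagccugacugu
mmu-miR-344c-3p: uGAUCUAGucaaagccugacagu
mmu-miR-344b-3p: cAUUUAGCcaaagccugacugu
mmu-miR-344-5p: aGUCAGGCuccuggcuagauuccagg
mmu-miR-344b-5p: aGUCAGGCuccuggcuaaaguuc
mmu-miR-344c-5p: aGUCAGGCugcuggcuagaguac

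The seed GAUCUAG was shared by mmu-miR-344-3p and mmu-miR-344c-3p, the seed GUCAGGC by the 5p arms of all 3 Mir344 hairpins, and no other seeds printed here match. NONMMUT140296.1 (chr10:122982543-122985806, minus) spans the hairpin of let-7i, a microRNA of the let-7 family. It measured 3.80, 3.69 and 4.70 FPKM with saline and 3.52, 2.96 and 2.81 FPKM with PM2.5, so the groups did not overlap. The log2 fold change was -0.34 (SE 0.15, limma adjusted p = 0.536). NONMMUT140596.1 (chr11:87755563-87757709, plus) holds Mir142, a microRNA gene of blood cells, at 5.30, 2.59 and 3.02 FPKM with saline and 2.93, 2.59 and 2.84 FPKM with PM2.5, where the groups overlapped. NONMMUT009389.2, around Mir146, whose product restrains innate immune signalling, measured 2.26, 1.05 and 1.29 FPKM with saline and 1.38, 1.60 and 3.26 FPKM with PM2.5. NONMMUT002935.2, around Mir181b-1, measured 2.45, 1.45 and 1.85 FPKM with saline and 2.90, 1.85 and 2.97 FPKM with PM2.5. The groups overlapped for both. The pair of members spanning the Mir344 cluster on chromosome 7, a region of imprinted and brain-expressed genes, stayed at or below 1.10 FPKM in every library.

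The values of a library summed to 345089 to 388125 FPKM, and low values of each fell near regular steps that amount to 37.7 to 44.15 M steps a library. From 64.7% to 72.7% of the values close to a whole step were even multiples, so a step may be less than a fragment and the number of fragments is not known. At that spacing, 3 steps on a transcript of 1 kb are 0.0680 to 0.0796 FPKM, which covers counting error only, and 0.5 FPKM on the median member is 28.6 to 33.5 steps. Summed markers of plasma cells were 150 to 231 FPKM with saline and 528 to 989 FPKM with PM2.5, those of endothelium 782 to 832 and 634 to 694 FPKM, and those of mesothelium 6.88 to 10.004 and 12.3 to 17.1 FPKM. Each of these 3 lists gave an exact permutation p of 0.1, the smallest that 3 against 3 allows. Cardiac muscle markers ranged from 36.6 to 376 FPKM and alveolar type 2 markers, which define lung tissue here, from 3045 to 10210 FPKM, with overlapping groups. The alveolar type 2 sums were 10210, 3045 and 3188 FPKM with saline and 8779, 3119 and 4089 FPKM with PM2.5. Replicate 2 was thus the highest in both groups. All markers of the cell type lists were among the genes listed. Fewer cells of a type and less RNA per cell cannot be told apart in such samples.

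Most members were barely detected. The median of their mean levels over the 6 libraries was 0.0496 FPKM, 26671 members reached 0.5 FPKM in no library, and 2049 reached it in all 6. Members above 0 in all 6 libraries numbered 11435, and 7050 were above 0 in a single library. A mean of at least 0.5 FPKM was reached by 3419 members (10.6%), at 2882 loci, and 91 had a mean of at least 10 FPKM. The median span was 1516 bases (quartiles 921 and 3298), and the median gap to the nearest Ensembl span was 15559 bases.

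The share of members at 0.5 FPKM or more was 10.6%, 10.7% and 12.3% in the saline libraries and 11.8%, 10.1% and 10.3% in the PM2.5 libraries, a mean of 10.98% ± 0.848 (SD, n = 6). Sense-overlapping NONCODE transcripts reached that level far more often, at 46.3% ± 1.03, and intergenic members were lower in 6 of 6 libraries by 35.3 percentage points (exact sign-flip permutation p = 0.03125, the smallest that 6 libraries allow, adjusted p = 0.0469 over 3 comparisons). Divergent transcripts stood at 13.0% ± 2.01, and intergenic members were lower in 6 of 6 libraries by 2.03 points (exact sign-flip permutation p = 0.03125, adjusted p = 0.0469). At a floor of 1 FPKM that difference turned to 0.0680 points in favour of the intergenic members. Antisense transcripts stood at 9.92% ± 0.905, and intergenic members were higher in 5 of 6 libraries by 1.06 points (exact sign-flip permutation p = 0.0625, adjusted p = 0.0625). That difference was 2.67 points at a floor of 0.1 FPKM and 0.852 at 1 FPKM, both past the threshold, and it turned to -2.40 points for members at least 10 kb from Ensembl spans.

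The difference from the divergent class was itself unequal between groups. Divergent transcripts reached 0.5 FPKM in 14.4%, 14.99% and 14.6% of cases with saline and in 12.8%, 10.7% and 10.6% with PM2.5. Intergenic minus divergent was -3.81, -4.24 and -2.38 points with saline and -1.02, -0.522 and -0.236 points with PM2.5. The groups did not overlap (exact permutation p = 0.1, the smallest possible). The same contrast gave exact permutation p = 0.4 against the antisense class and 0.9 against the sense-overlapping class, without adjustment over these 3.

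**Figure D1:**
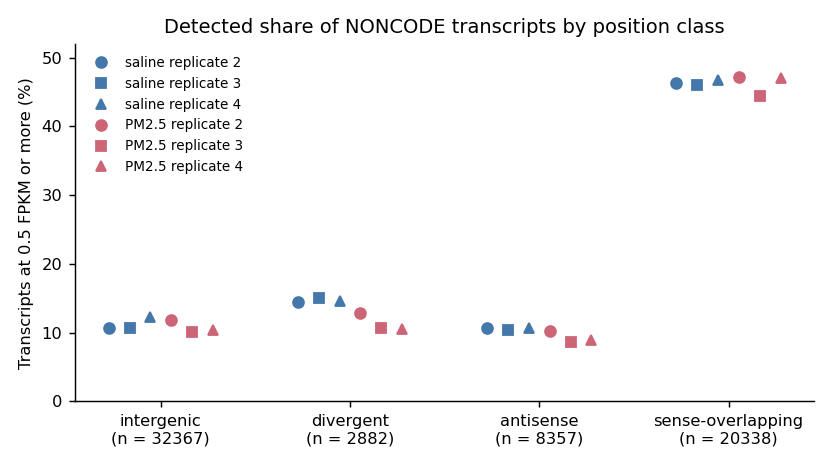
Share of autosomal NONCODE lncRNAs at 0.5 FPKM or more in each of the 6 libraries, by position relative to Ensembl transcripts; each point is a library, with circles, squares and triangles for replicates 2, 3 and 4. The intergenic share stays between 10.1% and 12.3%, below the sense-overlapping share of 44.4% to 47.2% in every library.

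A few members held much of the signal. The member of highest mean held 19.6% of the members' summed mean FPKM, the first 2 held 26.7% and the first 10 held 31.9%. NONMMUT029642.2 (chr17:39843013-39846341, plus) lies 12 bases from Rn18s-rs5, a ribosomal RNA related gene, and measured 5992, 2556 and 1361 FPKM with saline and 2095, 1989 and 957 FPKM with PM2.5. NONMMUT024712.2 (chr15:93234363-93234700, plus) measured 1494, 646 and 658 FPKM with saline and 800, 991 and 775 FPKM with PM2.5. Saline replicate 2 was the highest library for both, and the groups overlapped.

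Over all members, the levels summed to 16418, 12205 and 12026 FPKM with saline and 12866, 11962 and 10653 FPKM with PM2.5. That was 3.01% to 4.23% of a library. The means were 13550 ± 2486 and 11827 ± 1113 FPKM (SD, n = 3 each, exact permutation p = 0.4). Without the first 2 members the sums were 8932, 9003 and 10006 FPKM with saline and 9971, 8982 and 8920 FPKM with PM2.5 (exact permutation p = 0.7). Members at 0.5 FPKM or more numbered 3438, 3479 and 3969 with saline and 3815, 3279 and 3349 with PM2.5 (exact permutation p = 0.5). From 10733 to 11947 members were listed at 0 in saline libraries and from 11232 to 13553 in PM2.5 libraries (exact permutation p = 0.2). None of these totals separated the groups.

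Members above 0 in all 3 saline libraries and listed at 0 in all 3 PM2.5 libraries numbered 271 of 32367. Of all 149728 transcripts in the table, 757 (0.506%) did so. The opposite pattern was met by 114 of 32367 members, where 331 of all 149728 transcripts (0.221%) did so. The highest of them were still low: NONMMUT105324.1, near Klf9, measured 0.958, 0.0274 and 0.633 FPKM with saline, and NONMMUT007618.2 measured 0.823, 0.0599 and 0.0468 FPKM with PM2.5. A value of 0 can be a failed estimate.

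The label intergenic holds for the Ensembl transcripts in the table. Against RefSeq GRCm38.p6, 46.5% of the members overlapped the span of a gene. Members inside a RefSeq lncRNA gene made up 29.7% of the set but 18.4% of the 3419 with a mean of at least 0.5 FPKM. Members inside a RefSeq protein-coding gene made up 12.3% of the set and 26.4% of those 3419. Of the 91 members at 10 FPKM or more, 28 lay in a protein-coding gene, 28 in a lncRNA gene, 5 in a pseudogene, 4 over a small RNA and 26 in no RefSeq gene.

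**Figure D2:**
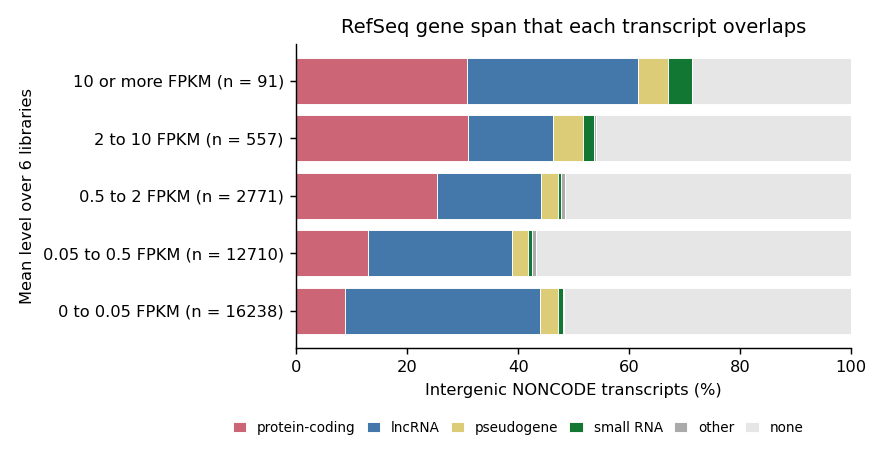
Share of members by the class of RefSeq gene their span overlaps, in bins of mean FPKM over 6 libraries. The protein-coding share goes from 8.84% of members under 0.05 FPKM to 30.8% of those at 10 FPKM or more, and the share in no RefSeq gene from 51.7% to 28.6%.

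Position relative to the nearest Ensembl span went with the level. The share of members with a mean of at least 0.5 FPKM was 30.0% within 1 kb, 20.8% from 1 to 5 kb, 11.002% from 5 to 10 kb, 7.37% from 10 to 50 kb and 5.02% from 50 to 200 kb. Beyond 200 kb it was 10.9%, and 148 of those 209 members (70.8%) lay inside a RefSeq protein-coding span. Within 5 kb, members downstream of a gene on its strand reached that level in 33.5% of cases (837 of 2501). The shares were 14.1% upstream on the same strand, 15.8% downstream on the opposite strand and 12.5% upstream on the opposite strand. These are descriptions over members, which share neighbours and libraries.

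Of the tested members (mean of at least 0.5 FPKM) in RefSeq protein-coding genes, 239 lay past the last Ensembl base of a same-strand gene, at 164 genes, at a median gap of 2246 bases. The member's level was below the gene's in 195 of these (81.6%). Across the 239 pairs, which share libraries and in part genes, log2 levels correlated with r = 0.30 and rho = 0.30. NONMMUT008324.2 (chr11:4078145-4078990, plus) starts 409 bases past Sec14l3, a lipid-binding protein gene, and measured 231, 247 and 232 FPKM with saline and 275, 242 and 239 FPKM with PM2.5. The Ensembl rows of Sec14l3 summed to 27.2 ± 13.9 and 19.9 ± 4.51 FPKM, less than the member. NONMMUT034211.2, 202 bases past Klf9, a glucocorticoid-responsive transcription factor gene, had means of 52.6 ± 15.01 and 50.5 ± 12.4 FPKM, close to the 46.4 ± 11.6 and 45.1 ± 14.1 FPKM of Klf9. Another 368 tested members lay ahead of the first Ensembl base of a same-strand gene, at 75 genes and a median gap of 65192.5 bases. Robo2, an axon guidance receptor gene, held 80 of these, Rarb, a retinoic acid receptor gene, 67, and Arhgap32 25.

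Of the 10 members of highest level, 3 lay over small RNAs and 2 over pseudogenes. NONMMUT044785.2 (chr3:108554338-108554751, minus) covers Scarna2, a guide RNA of Cajal bodies, and measured 92.3, 63.9 and 40.3 FPKM with saline and 35.3, 38.4 and 25.9 FPKM with PM2.5. The groups did not overlap, and the log2 fold change was -0.91 (SE 0.33, limma adjusted p = 0.508). NONMMUT049855.2, over Snora73b inside Snhg3, a small nucleolar RNA host gene, ran from 50.0 to 108 FPKM with saline and from 53.3 to 81.8 FPKM with PM2.5. NONMMUT064427.2, over Rprl3, an RNase P RNA like gene, ran from 45.4 to 78.7 FPKM with saline and from 41.3 to 67.8 FPKM with PM2.5. Saline replicate 2 was the highest of the 6 for all 3. The pseudogene members NONMMUT020592.2 (Ubb-ps) and NONMMUT142601.1 (Gm2423) had means of 57.1 ± 2.52 and 63.9 ± 7.53 FPKM, and of 58.5 ± 5.11 and 57.7 ± 3.53 FPKM. A pseudogene shares sequence with its parent gene, so the counting could split reads between them and these levels are uncertain.

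A neighbouring pair on chromosome 14 and a member on chromosome 18 were high in the same PM2.5 libraries. NONMMUT092674.1 (chr14:32118000-32118942, plus) measured 29.2, 53.5 and 50.2 FPKM with saline and 138, 103 and 45.5 FPKM with PM2.5. NONMMUT020278.2, just before it, measured 15.3, 20.6 and 19.6 FPKM and 58.3, 41.7 and 20.6 FPKM. NONMMUT104237.1 on chromosome 18 measured 17.8, 26.9 and 29.0 FPKM and 78.7, 54.0 and 23.6 FPKM. PM2.5 replicates 2 and 3 were above every saline library for all 3 members, while PM2.5 replicate 4 lay near the saline values. The last 2 were picked after their values were seen.

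With PM2.5 compared with saline, no member passed the threshold of 0.05 on the adjusted p in limma's moderated test of log2(FPKM + 0.5), run over the 60525 transcripts whose mean reached 0.5 FPKM. Among all those transcripts 92 passed, 0.152%. The smallest adjusted p of a member was 0.244. At an unadjusted p under 0.05 there were 138 members with higher and 97 with lower values, 235 of 3419 (6.87%), where 9.46% of all tested transcripts were at that p. By direction, 4.56% of all tested transcripts were higher and 4.89% lower. The median log2 fold change of the members was -0.00, and 5% of them were below -0.53 and 5% above 0.52. Values of all 3 PM2.5 libraries lay above all 3 saline libraries for 292 members (8.54%, against 8.77% of all tested transcripts) and below them for 264 (7.72%, against 8.31%). Both of these shares were near those of all transcripts.

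By what the members overlap, the counts were as follows, with no test between classes. Over all tested transcripts, 4.56% were higher and 4.89% lower at an unadjusted p under 0.05. Of 630 tested members in RefSeq lncRNA genes, 47 had higher and 16 lower values at an unadjusted p under 0.05. In protein-coding genes the numbers were 29 and 26 of 904, and in no RefSeq gene 61 and 46 of 1713. Over small RNAs they were 0 and 4 of 30. Of the 47, 24 lay in 2 genes, Lncpint and 9030622O22Rik. Outside both genes, 576 members in RefSeq lncRNA genes held 23 with higher and 16 with lower values. Outside the set, 5 divergent transcripts were higher and 29 lower of 350, 11 antisense transcripts were higher and 55 lower of 801, and 612 sense-overlapping transcripts were higher and 308 lower of 9760.

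Members in the same RefSeq lncRNA gene share a gene and are not replicates, so they are given as counts and library sums. Grouping was done for the 17 genes with at least 5 tested members and for Gm33583, after values had been seen. Lncpint (chr6:31093563-31218474, minus) is a lncRNA induced by p53 in mouse cells. It held 39 members, of which 34 were tested. Their levels summed to 326, 320 and 400 FPKM with saline and 447, 454 and 478 FPKM with PM2.5, means of 349 ± 44.2 and 460 ± 16.2 FPKM (SD, n = 3 each). Every PM2.5 library was above every saline library.

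Of the 34 Lncpint members, 33 had log2 fold changes above 0 (median 0.36), 15 were higher at an unadjusted p under 0.05 and 18 had all PM2.5 values above all saline values. Over all tested transcripts, 4.56% were higher at that p and 8.77% had all PM2.5 values above, and Lncpint was grouped after values had been seen. No adjusted p was under 0.441. The highest, NONMMUT150330.1 (chr6:31135303-31136772), measured 16.7, 17.035 and 21.4 FPKM with saline and 25.3, 24.5 and 25.7 FPKM with PM2.5 (log2 fold change 0.45, SE 0.13, limma adjusted p = 0.452). NONMMUT150325.1 measured 14.3, 14.2 and 18.3 FPKM with saline and 20.5, 22.9 and 24.2 FPKM with PM2.5. NONMMUT150324.1 measured 15.7, 14.7 and 17.7 FPKM and 20.5, 20.9 and 22.4 FPKM. For all 3 the lowest PM2.5 library exceeded the highest saline library. NONMMUT150309.1, near the 3′ end of the gene, measured 0.0889, 1.28 and 0.0907 FPKM with saline and 2.28, 1.97 and 2.04 FPKM with PM2.5.

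The Lncpint direction held with each library left out, when 32 to 34 of 34 members were positive, but the number at p under 0.05 then ran from 6 to 19. It was 6 when saline replicate 3 or PM2.5 replicate 4 was left out, 8 when saline replicate 2 was and 10 when PM2.5 replicate 2 was. Median-ratio scaling and quantile normalization each left 33 of 34 positive. Plasma cell and mesothelial marker sums were higher and endothelial sums lower in the same 3 libraries, and their part in these values was not tested.

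The gene 9030622O22Rik (chr2:147944459-148040513, minus) lies beside Foxa2, a transcription factor gene of airway and alveolar epithelium. It held 48 members, of which 21 were tested. Their sums were 30.7, 25.7 and 24.996 FPKM with saline and 39.7, 36.8 and 41.9 FPKM with PM2.5, means of 27.1 ± 3.07 and 39.5 ± 2.55 FPKM, without overlap. A positive log2 fold change was seen in 20 of 21 (median 0.44), 9 were higher at an unadjusted p under 0.05, and the smallest adjusted p was 0.423. Over all tested transcripts, 4.56% were higher at that unadjusted p. NONMMUT147072.1 (chr2:147957223-147957670) measured 0.755, 1.06 and 0.877 FPKM with saline and 1.61, 1.42 and 1.75 FPKM with PM2.5 (log2 fold change 0.58, SE 0.15, limma adjusted p = 0.423). With a library left out, 18 to 21 of 21 members were positive, and 3 to 8 were at p under 0.05, the fewest (3) without saline replicate 3 or 4 and 4 without PM2.5 replicate 2 or 4. Foxa2 itself had means of 8.51 ± 3.02 and 6.37 ± 0.539 FPKM (log2 fold change -0.33, limma adjusted p = 0.669 over genes).

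Gm33583 (chr14:98169904-98188620, plus) lies near Dach1, a transcription factor gene on the opposite strand, and held the 2 named members with the lowest p among those higher with PM2.5. Its 4 tested members summed to 2.68, 1.64 and 2.38 FPKM with saline and 8.14, 5.38 and 9.35 FPKM with PM2.5, means of 2.23 ± 0.536 and 7.62 ± 2.03 FPKM. NONMMUT093419.1 (chr14:98178415-98180550) measured 0.858, 0.478 and 0.641 FPKM with saline and 2.17, 1.57 and 2.08 FPKM with PM2.5 (log2 fold change 1.08, SE 0.19, limma adjusted p = 0.244). NONMMUT093417.1 (chr14:98172403-98172610) measured 0.224, 0.763 and 0.630 FPKM with saline and 2.36, 2.02 and 3.51 FPKM with PM2.5 (log2 fold change 1.60, limma adjusted p = 0.254). The groups did not overlap for either, which was a condition for naming them. Over all tested transcripts, 8.77% had all PM2.5 values above all saline values. Dach1 had means of 14.7 ± 0.573 and 11.8 ± 0.467 FPKM (log2 fold change -0.30, limma adjusted p = 0.260 over genes), the opposite sign.

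The gene with the most tested members leaned the other way. Gm30382 (chr3:149181187-149445599, minus) held 40 members, 35 of them tested, and 30 of these had a negative log2 fold change (median -0.24). Only 1 was lower at an unadjusted p under 0.05, where 4.89% of all tested transcripts were. The sums of the 35 were 34.2, 36.5 and 40.4 FPKM with saline and 32.5, 24.9 and 35.0 FPKM with PM2.5, and the groups overlapped. With a library left out, 24 to 32 members were negative. The fewest were 24 of 33 without saline replicate 4 and 24 of 35 without PM2.5 replicate 3. All 9 tested members of Gm4258 were positive, with sums of 20.7, 17.3 and 20.4 FPKM with saline and 27.2, 20.8 and 34.8 FPKM with PM2.5. Without PM2.5 replicate 4, 7 of the 9 were positive. Of the 8 tested members of Gm30215, 7 were positive, and the sums, 5.69, 3.83 and 5.19 FPKM with saline and 7.34, 7.40 and 7.05 FPKM with PM2.5, did not overlap. With a library left out, 6 to 8 of its members were tested and all but 1 or 2 were positive. The sums of the 5 Snhg3 members, 150, 76.2 and 71.4 FPKM with saline and 77.5, 100 and 73.8 FPKM with PM2.5, overlapped. The remaining grouped genes were Zmiz1os1, Gm38708, Gm10777, Gm29683, 5031425E22Rik, A230057D06Rik, E430024I08Rik, 4930456A14Rik, Gm45950, Gm46565 and LOC115487949. In each of them 0 members were at an unadjusted p under 0.05, and the sums of the groups overlapped. Their median log2 fold changes ran from -0.12 to 0.10.

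**Figure D3:**
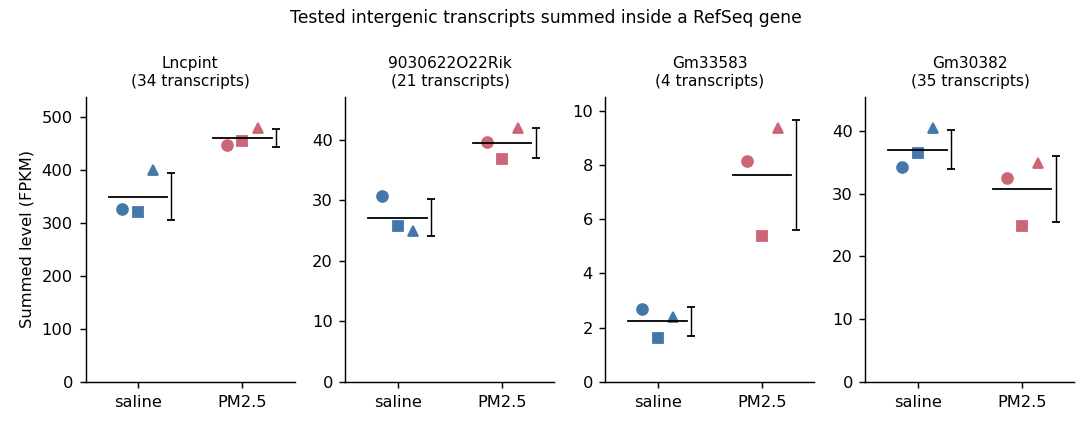
Summed FPKM of the tested members in 4 RefSeq lncRNA genes; points are libraries (circle, square and triangle for replicates 2, 3 and 4), lines are means and bars SD of 3 libraries, and each panel has its own axis from 0. PM2.5 libraries lie above all saline libraries for Lncpint (447 to 478 against 320 to 400 FPKM), 9030622O22Rik and Gm33583, and overlap them for Gm30382.

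**Figure D4:**
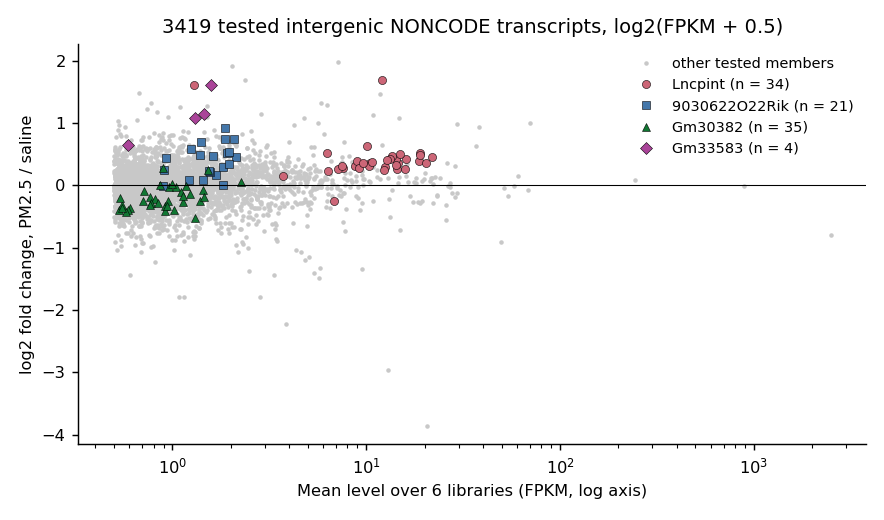
Log2 fold change of the 3419 tested members (PM2.5 over saline, vertical axis) against mean FPKM over 6 libraries (log axis), with members of 4 RefSeq lncRNA genes marked. Of the Lncpint points 33 of 34 lie above 0, and 30 of 35 Gm30382 points lie below it.

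The named members with the lowest p and no overlap between groups had adjusted p from 0.244 to 0.417, and none passed the threshold. Among those higher with PM2.5, NONMMUT013999.2 (chr12:38869931-38870479, plus) lies inside the RefSeq span of Etv1, an ETS transcription factor gene, on its strand. It is 1716 bases past the Ensembl rows of that gene. It measured 1.70, 1.63 and 1.19 FPKM with saline and 2.75, 3.49 and 2.88 FPKM with PM2.5 (log2 fold change 0.82, SE 0.16, limma adjusted p = 0.318). The Ensembl rows of Etv1 were also higher, at 0.754 ± 0.0873 and 2.25 ± 1.12 FPKM (log2 fold change 1.04, limma adjusted p = 0.355 over genes). The member and these rows can be parts of 1 gene. NONMMUT139410.1, inside the RefSeq span of Ddo, the D-aspartate oxidase gene, measured 0.342, 0.203 and 0.387 FPKM and 1.58, 0.922 and 1.53 FPKM (log2 fold change 1.17). NONMMUT127336.1, near AU020206, measured 4.11, 3.94 and 3.81 FPKM and 5.93, 5.71 and 7.55 FPKM (log2 fold change 0.62). The remaining 3 were NONMMUT095595.1 past Mtdh (0.80), NONMMUT002923.2 in Gm4258 (0.63) and NONMMUT097486.1 near A4galt, which makes a cell surface glycolipid (0.84), all as log2 fold changes.

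Of the 8 named members with lower values, the one of lowest p was NONMMUT024624.2 (chr15:89498022-89499535, plus), inside the RefSeq span of Shank3 and 88 bases ahead of its Ensembl rows. Shank3 encodes a scaffold protein. The member measured 11.5, 8.18 and 6.02 FPKM with saline and 2.86, 2.87 and 3.28 FPKM with PM2.5 (log2 fold change -1.33, SE 0.24, limma adjusted p = 0.253). The Ensembl rows of Shank3 had means of 9.06 ± 0.654 and 10.7 ± 1.02 FPKM, the other sign (log2 fold change 0.23, limma adjusted p = 0.475 over genes). NONMMUT019506.2 (chr13:119661842-119662639, plus), past Ccl28, a mucosal chemokine gene, measured 2.85, 4.11 and 2.49 FPKM with saline and 1.73, 1.01 and 0.965 FPKM with PM2.5 (log2 fold change -1.08).

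A run of members upstream of Dusp6, the gene of a phosphatase that dampens ERK signalling, shared its direction. NONMMUT082523.1 (chr10:99255747-99257427, minus) measured 1.44, 1.86 and 1.62 FPKM with saline and 0.785, 0.492 and 0.695 FPKM with PM2.5 (log2 fold change -0.89, SE 0.17, limma adjusted p = 0.284). NONMMUT140227.1, 2371 bases from Dusp6, measured 1.88, 1.37 and 2.00 FPKM and 0.955, 0.578 and 0.834 FPKM (log2 fold change -0.80). NONMMUT082522.1, on their other side, measured 1.12, 0.829 and 0.803 FPKM and 0.456, 0.344 and 0.214 FPKM (log2 fold change -0.76). All 3 members had groups that did not overlap, which was a condition for naming NONMMUT082523.1 and NONMMUT140227.1. Over all tested transcripts, 8.31% had all PM2.5 values below all saline values. As neighbours on 1 strand the 3 members are not independent. Dusp6 on the opposite strand had means of 46.5 ± 1.87 and 37.5 ± 4.94 FPKM (log2 fold change -0.31, limma adjusted p = 0.375 over genes). The remaining 4 were NONMMUT093919.1 inside Rarb (-0.66), NONMMUT153787.1 near Skor1 (-0.68), NONMMUT123044.1 inside Cracr2a (-0.51) and NONMMUT100511.1 in Gm41514 (-0.81), as log2 fold changes. Of 6 tested members within 10 kb of NONMMUT093919.1 on its strand, 4 shared its sign and 0 were at an unadjusted p under 0.05. The Ensembl rows of Rarb had the opposite sign (log2 fold change 0.37, limma adjusted p = 0.408 over genes).

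The members starting at RefSeq promoters were of both signs. NONMMUT010161.2, of 2410006H16Rik, measured 10.7, 7.49 and 9.33 FPKM with saline and 6.49, 5.25 and 5.98 FPKM with PM2.5 (log2 fold change -0.59, SE 0.17, limma adjusted p = 0.455). NONMMUT038605.2, of Gm13816, measured 3.46, 2.86 and 2.55 FPKM with saline and 4.56, 4.63 and 6.05 FPKM with PM2.5 (log2 fold change 0.69, SE 0.17, limma adjusted p = 0.400). Neither pair of groups overlapped. The window of the first held GCGTG and GC boxes and that of the second held neither, as printed above. Both members were chosen after their values were seen. NONMMUT099787.1, of Dubr, whose window also held GCGTG and a GC box, had a log2 fold change of 0.0033 (limma adjusted p = 0.997), with overlap. Whether motifs went with direction was not tested.

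Members were also read by the gene they neighbour. Near 30 genes that specify lung and body pattern lay 284 members, of which 59 near 11 genes were tested. None passed the threshold, 45 had a positive log2 fold change (median 0.14), 10 were higher and 0 lower at an unadjusted p under 0.05. Over all tested transcripts, 4.56% were higher and 4.89% lower at that p. Of the 10, 9 lay in a single locus beside Foxa2 and 1, NONMMUT127280.1, lay near Nr2f2, an orphan nuclear receptor gene. Near Nkx2-1, the transcription factor gene of lung epithelium, 12 members were tested, 7 positive and 5 negative, with none at p under 0.05. NONMMUT014301.2 there measured 22.5, 27.6 and 29.4 FPKM with saline and 24.9, 24.0 and 29.5 FPKM with PM2.5, with overlap.

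Near genes of the particle response (metabolism of combustion compounds, oxidant defence, cytokines) lay 43 members, and none had a mean of at least 0.5 FPKM. The highest mean there was 0.305 FPKM. Near surfactant and other secreted lung proteins lay 10 members, 4 of them tested, with 0 at an unadjusted p under 0.05. NONMMUT057420.2 lies 410 bases past Sftpb, a surfactant protein gene at 1684 ± 139 and 1708 ± 168 FPKM, and measured 0.810 ± 0.341 and 0.478 ± 0.183 FPKM. Of 11 members near immunoglobulin genes 2 were tested, and of 27 near histone genes 5 were, with 0 at p under 0.05 in either list. NONMMUT016573.2, near Hist1h2bn, measured 3.76, 7.78 and 8.79 FPKM with saline and 11.8, 11.7 and 5.30 FPKM with PM2.5, with overlap. NONMMUT016667.2, 25 bases past Hist1h4d, measured 1.29, 1.10 and 0.925 FPKM with saline and 0.915, 0.818 and 0.295 FPKM with PM2.5, without overlap (log2 fold change -0.49, limma adjusted p = 0.605). Hist1h4d itself had means of 161 ± 44.3 and 49.2 ± 15.1 FPKM (log2 fold change -1.71, limma adjusted p = 0.162 over genes).

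A list of 60 long noncoding genes known by name was read from the Ensembl rows for comparison. Some of these rows were near 0. Malat1 was at 0.454 FPKM in saline replicate 4 and at 0 elsewhere, and Tug1 ran from 0.00391 to 0.00458 FPKM. Whether such rows hold all reads of their genes was not tested. Of the 60 genes, 30 were found by their exact symbol, and those with a mean under 0.5 FPKM were left out. Lncpint was not found this way, since Ensembl rows carry it under the joined symbol Lincpint,Lncpint. The level of those rows is not given here. Tested were 16, and limma called 0 of them, with the smallest adjusted p at 0.228. At an unadjusted p under 0.05, 0 were higher and 4 lower, where 7.82% of all 14865 tested genes were lower. Rmrp, the RNA of RNase MRP, measured 7190, 3452 and 2198 FPKM with saline and 885, 1110 and 568 FPKM with PM2.5 (log2 fold change -2.20, limma adjusted p = 0.228). It was highest in saline replicate 2, like NONMMUT029642.2. The others were 2900097C17Rik, Snhg5 and Mhrt, a heart-expressed RNA. Mhrt measured 0.423, 1.34 and 0.662 FPKM with saline and 0.449, 0.0821 and 0.112 FPKM with PM2.5, with overlap.

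Some members were near 0 in part of the libraries and well expressed in the rest. Of 1052 members that reached 2 FPKM in a library, 103 (9.79%) were below 10% of their maximum in another. The share was 11.5% (612 of 5337) among sense-overlapping NONCODE transcripts and 19.4% (4135 of 21355) among Ensembl transcripts. Each library was low for 36 to 46 of the 103, and 63 of the 103 overlapped another member on their strand. NONMMUT040518.2, in Csnk2a1, a protein kinase gene, measured 31.8, 31.7 and 31.8 FPKM with saline and 28.1, 0.122 and 0.119 FPKM with PM2.5. NONMMUT025247.2, in Adcy9, measured 0.129, 14.2 and 14.5 FPKM with saline and 14.3, 12.9 and 14.3 FPKM with PM2.5. NONMMUT067035.2, near Sntb2, measured 13.2, 14.4 and 0.00244 FPKM and 16.0, 14.8 and 0.00272 FPKM. The low libraries differed from member to member.

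Where members overlap, a low value of one could stand beside a high value of another. NONMMUT107853.1 near Gabpb1 measured 0.431, 3.19 and 2.83 FPKM with saline and 0.210, 0.106 and 0.150 FPKM with PM2.5. NONMMUT039655.2, of the same locus, measured 2.66, 0.00278 and 0.0526 FPKM with saline and 2.63, 2.80 and 4.04 FPKM with PM2.5. Their sum was 3.09, 3.20 and 2.88 FPKM with saline and 2.84, 2.90 and 4.19 FPKM with PM2.5. The sum of this pair varied by less than either member, and its groups overlapped. It left out other overlapping members of the locus. Among these, NONMMUT039657.2 measured 0, 2.16 and 0.802 FPKM and NONMMUT039656.2 0, 0.174 and 2.26 FPKM with saline, and both were at 0 in every PM2.5 library. The pair's sum is therefore not the level of the locus. Examples in these 2 paragraphs were chosen after their values were seen.

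**Figure D5:**
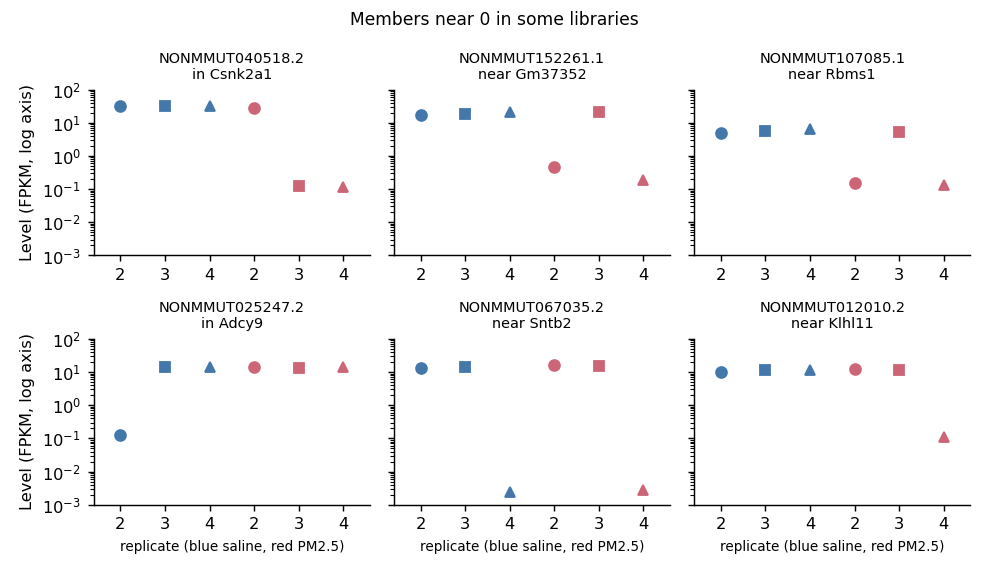
Level (FPKM, log axis) of 6 members in each library, saline replicates 2, 3 and 4 on the left and PM2.5 replicates on the right of each panel. A member that holds 10 FPKM or more in some libraries can be at or below 0.5 FPKM in others of the same group, as NONMMUT040518.2 is in 2 of 3 PM2.5 libraries.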

How the data were processed

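RNA-seq of 6 mouse lung libraries was compared. HISAT2, bcl2fastq and build mm10 are named in the submitters' processing notes, and the quantifier is not given in the sources used here. The authors' deposited values, 1 per transcript and library, were read as FPKM, since the file header names no unit and the values behave like FPKM as deposited. Coordinates are those of the table, and RefSeq spans and sequences come from GRCm38.p6. Transcripts whose mean reached 0.5 FPKM were tested with limma 3.58.1 (R 4.3.3) on log2(FPKM + 0.5) (moderated with a mean trend, 2-sided, Benjamini-Hochberg over all transcripts, threshold 0.05), and Ensembl rows summed per symbol likewise. Fold changes on this scale understate those of low transcripts. Library totals were compared by exact permutation. The scripts were tested on simulated data. Members, lists and groupings were chosen with earlier results of these data known. Named members were up to 8 per direction of lowest p without overlap between groups and with 1 FPKM in a group, the 10 of highest mean and up to 3 per neighbour list, 1 per locus. RefSeq gene groups, promoter members, and members near 0 were chosen after values were seen. With no genome at hand, motifs were searched in RefSeq windows, not in windows at every member, and AATAAA was not searched. Transcripts of the X and Y chromosomes are not members. Alternatives were other pseudocounts, filters, scalings and weights, locus sums, each library left out, the replicate number as a block and members at least 10 kb from Ensembl spans.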

Additional observations from a re-analysis of the deposited data

How the results depend on the processing

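The limma count of members past the threshold was 0 under every alternative that kept all 6 libraries, with 155 to 250 members at an unadjusted p under 0.05 among the 3419 tested (3250 as locus sums), 78 of 648 at a mean of at least 2 FPKM, 1431 of 32367 without a filter and 93 of 1422 at least 10 kb from Ensembl spans. With a library left out it ran from 0 to 3: 2 without saline replicate 2 (NONMMUT107853.1 and NONMMUT039655.2), 1 without saline replicate 3 (NONMMUT150309.1), 1 without PM2.5 replicate 2 (NONMMUT040518.2) and 3 without PM2.5 replicate 3 (NONMMUT107085.1, NONMMUT152261.1 and NONMMUT071362.2). Same-numbered libraries of the groups deviated with r of 0.0033 to 0.0067, and differently numbered ones with r of -0.0084 to 0.0040. An r near 0 over all transcripts cannot exclude pairing, and alveolar type 2 marker sums were highest in replicate 2 of both groups. Whether the numbers pair the libraries is therefore not known. With the replicate block, 155 members were at an unadjusted p under 0.05, and 5 transcripts of all were called in place of 92.

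The difference in summed FPKM, PM2.5 minus saline, was -1723, and it was 19.4 for members at least 10 kb from Ensembl spans, -47.5 without the 10 highest members, -22.5 without the 2 highest (chosen after seeing the data) and from -2485 to -288 with a library left out. The replicate block left it at -1723, and 3 pairs allow no exact p under 0.25. The difference in the number of members at 0.5 FPKM or more was -148 and ran from -315 to 22.5 with a library left out, the last without saline replicate 4.

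Intergenic minus divergent was 0.0680 points at a floor of 1 FPKM and from -2.39 to -1.59 with a library left out, when 5 libraries allow no exact p under 0.0625. Intergenic minus antisense was 2.67 points at a floor of 0.1 FPKM and 0.852 at 1 FPKM, both past the threshold, -2.40 for members at least 10 kb away, and from 0.948 to 1.29 with a library left out. Intergenic minus sense-overlapping ran from -35.5 to -35.0.

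Named members kept their sign and side of the threshold in 550 of 569 refits. The 19 that turned sign had log2 fold changes between -0.17 and 0.15 as reported. NONMMUT024712.2 gave 0.10 with array weights and -0.22 to 0.38 with a library left out. NONMMUT049855.2 gave 0.0305 and -0.28 to 0.27. NONMMUT142601.1 gave 0.0038 with quantile normalization and -0.0902 to 0.0340. NONMMUT064427.2 gave -0.39 to 0.0819 and NONMMUT034211.2 -0.31 to 0.15 with a library left out. NONMMUT150482.1 gave 0.0383 as a locus sum and -0.27 to 0.15, and NONMMUT113661.1 gave -0.0481 as a locus sum. The cause was not tested.

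With 3 libraries a group, 28948 of 32367 members had a mean under 0.5 FPKM and were not tested. What more depth would show was not tested.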
